A study of Mus musculus with 54 samples.

Results

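The 10 imprinted genes examined here were Inpp5f, Peg3, Peg10, Mest, Plagl1, Grb10, Snrpn, Igf2r, Kcnq1ot1 and Gnas. A peak was counted at a gene when its summit, the base with the highest signal, lay inside the gene or within 1000 bp of it in the GENCODE annotation of GRCm39. Of 25012 peaks in the 42 deposited peak lists, 22 met this rule, and they came from 16 of the 42 lists. Inpp5f held 11 of the 22. The genes were selected on the measured peak lists themselves, Inpp5f because 1 of its regions recurred in many lists, so the counts at the chosen genes are a description. A planned test on these counts is given at the end, with its limits, for completeness only.

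Each list was made from 1 ChIP-seq library of F9 cells, a mouse embryonal carcinoma line, that over-expressed 1 Krüppel-associated box zinc finger protein (KZFP) with a C-terminal HA tag from a Sleeping Beauty vector and were selected with puromycin. The tagged protein was pulled down with an anti-HA antibody, and peaks were called against an input that was mixed for each batch. There were 5 batches of 3, 3, 13, 20 and 3 KZFPs, numbered here 1 to 5. Cells with an empty vector served as an additional control in batches 1, 2 and 4, which gave 26 of the lists, and not in batches 3 and 5, which gave 16. Every KZFP had a single library, so no value below has a replicate error. Sequencing depth ran from 19.6 to 90.4 M reads per library (M, the prefix mega), and the lists held 21 to 6183 peaks each (median 125.5). The 6 lists of over 1000 peaks held 75.4% of all peaks.

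Imprinted genes are expressed from the maternal or the paternal copy alone, and the choice is set by a differentially methylated region (DMR), usually a CpG island that was methylated in the germline of 1 parent. ZFP57, itself a KZFP, binds the hexamer TGCCGC when it is methylated and keeps that methylation in place with the co-repressor KAP1 (TRIM28), which KZFPs recruit through their KRAB domain. Inpp5f, which encodes an inositol phosphatase, carries such an island inside the gene, and a short variant that is expressed from the paternal copy starts there. None of the 42 lists was of ZFP57, and DNA methylation was not measured in these files.

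A few stretches of the genome carried most of the peaks at these genes, and they are shown first because the results below refer to them. All are from the + strand of GRCm39, in lower case, with every TGCCGC and its reverse complement GCGGCA in capitals. The Inpp5f stretch is the 300 bp around the median summit of the 10 lists that met there (chr7:128289572-128289871). The others are 200 bp around a summit, at Mest (chr6:30738038-30738237, Zfp_MB001), Plagl1 (chr10:12966698-12966897, Zfp982) and Grb10 (chr11:11975918-11976117, Zfp_MB003).
Inpp5f: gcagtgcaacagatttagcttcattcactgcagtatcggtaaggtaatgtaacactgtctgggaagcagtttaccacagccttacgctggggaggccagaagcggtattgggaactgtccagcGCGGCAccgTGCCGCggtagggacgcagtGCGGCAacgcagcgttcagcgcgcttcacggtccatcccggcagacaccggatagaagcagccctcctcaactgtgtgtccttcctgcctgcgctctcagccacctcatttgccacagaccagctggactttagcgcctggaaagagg
Mest: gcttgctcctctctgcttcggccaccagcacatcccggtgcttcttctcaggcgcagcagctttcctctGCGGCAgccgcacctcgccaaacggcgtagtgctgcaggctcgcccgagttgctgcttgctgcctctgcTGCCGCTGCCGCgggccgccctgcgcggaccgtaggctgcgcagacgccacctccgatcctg
Plagl1: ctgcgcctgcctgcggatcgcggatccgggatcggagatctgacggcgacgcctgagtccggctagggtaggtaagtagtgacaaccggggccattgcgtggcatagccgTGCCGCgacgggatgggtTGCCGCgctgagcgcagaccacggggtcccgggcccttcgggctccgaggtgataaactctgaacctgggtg
Grb10: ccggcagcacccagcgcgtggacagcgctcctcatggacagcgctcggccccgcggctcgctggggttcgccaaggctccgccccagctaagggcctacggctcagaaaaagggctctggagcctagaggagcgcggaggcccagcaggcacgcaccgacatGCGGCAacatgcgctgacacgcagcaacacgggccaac
The Inpp5f stretch held 3 copies of the hexamer, the Mest stretch 3, the Plagl1 stretch 2 and the Grb10 stretch 1. The Grb10 stretch is from the peak with the lowest fold there, 5.15. The windows of the other Grb10 peaks, of Zfp981 and Zfp_MB001, held 0. Those at Snrpn, Kcnq1ot1 and Gnas and that of the intronic Inpp5f peak of Zfp_MB001 also held 0 and are not shown.

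At Inpp5f (ENSMUSG00000042105.20, chr7:128212925-128299176, + strand), peaks of 10 lists overlapped in 1 merged region, chr7:128289096-128290464, 1369 bp long. The 10 KZFPs were Zfp980, Rex2, Zfp_MB018, Zfp_MB025 and Zfp600 of batch 4, Zfp_MB011, Zfp981 and Zfp_MB003 of batch 3, and Zfp_MB037 and Zfp_MB035 of batch 5. They carried 9 distinct zinc finger fingerprint arrays, the sets of amino acids that contact DNA, because Zfp_MB003 and Zfp_MB011 share one. No list of batch 1 or 2 had a peak there. Zfp6001 and Zfp6003 of batch 2 have the same array as Zfp_MB035, and neither of their lists had it.

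The summits lay close together in 9 of the 10 lists. The lowest was that of Zfp980 at position 128289704 and the next to last that of Zfp600 at 128289745, a range of 41 bp. The last, that of Zfp_MB003 at 128289945, lay 200 bp further downstream, so the 2 KZFPs with the same array did not share a summit. The peaks were 241 to 1358 bp wide.

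**Figure D1:**
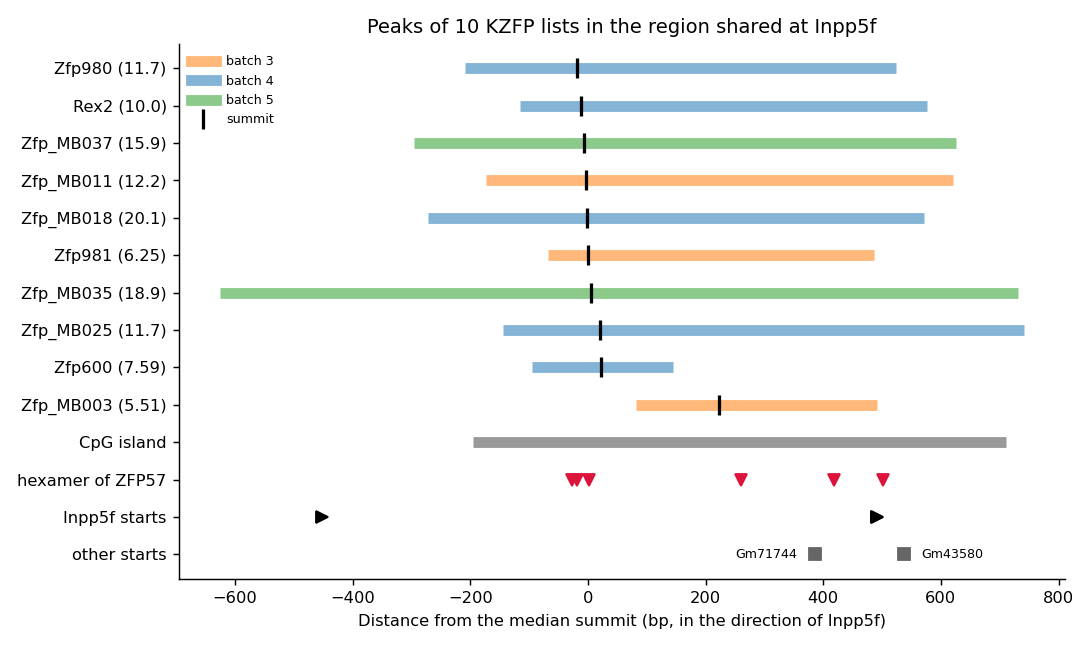
Peaks in the region shared at Inpp5f, drawn as bars against the distance in bp from the median summit, with the fold over input in brackets, a black tick at each summit and the colour giving the batch. The lower rows show the CpG island, the 6 copies of the hexamer TGCCGC, and the annotated transcript starts of Inpp5f and of other genes. Of the summits, 9 fall within 41 bp, over the first 3 hexamers.

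Enrichment over input was moderate at this region and differed between the lists. In batch 4, Zfp_MB018 had a fold of 20.1, Zfp_MB025 and Zfp980 each 11.7, Rex2 10.0 and Zfp600 7.59. In batch 5, Zfp_MB035 had 18.9 and Zfp_MB037 15.9. In batch 3, Zfp_MB011 had 12.2, Zfp981 6.25 and Zfp_MB003 5.51. The median over the 10 lists was 11.7, and the −log10 q values ran from 5.18 for Zfp_MB003 to 76.0 for Zfp_MB035. The authors kept peaks of a fold of at least 10, or of at least 5 where fewer than 20 peaks would have been left. The peak of Rex2 lay just inside its limit of 10, and 5 of the 10 lists had the lower limit, against 10 of all 42.

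The rank of the region within a list, from the highest fold down, ranged from near the top to the bottom. It was 4 of 296 peaks for Zfp_MB011, 3 of 114 for Zfp980 and 7 of 54 for Zfp_MB037. It stood at 12 of 51 for Zfp600, 21 of 171 for Zfp_MB018 and 67 of 335 for Zfp981. For these 6 KZFPs the peak fell in the first 23.5% of the list. It stood at 134 of 459 for Zfp_MB035, 177 of 360 for Zfp_MB003, 34 of 56 for Zfp_MB025 and 127 of 128 for Rex2. In 8 of the 10 lists the fold of the peak was in the upper 50% of the list, and the median rank was at 21.8% of the list.

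**Figure D2:**
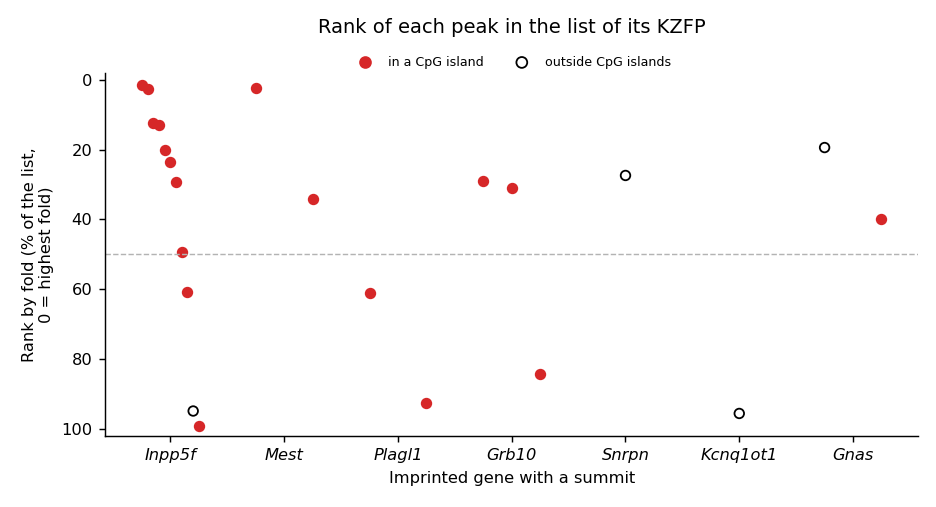
Rank by fold of each of the 22 peaks, in percent of its list, where 0 is the highest fold and the dashed line the middle of the list. Filled red points are summits in a CpG island and open points are not; at Inpp5f the ranks run from 1.35% (Zfp_MB011) to 99.2% (Rex2).

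The summits did not lie at the main start of Inpp5f. They were 76779 to 77020 bp downstream of the 5′ end of the gene, in the part from which short transcripts begin. The start of Inpp5f-208, a protein-coding transcript, lies 452 bp before the median summit, and those of Inpp5f-203 and Inpp5f-209 lie 491 bp after it. The antisense long non-coding RNA Gm71744 starts 386 bp after it, and the pseudogene Gm43580 537 bp after it. A CpG island of 908 bp covered all 10 summits (chr7:128289526-128290433, GC content 56.6%, observed over expected CpG ratio 0.839). An island is here a run of at least 200 bp with at least 50% GC and a ratio of at least 0.6. The island at the 5′ end of Inpp5f, 1226 bp long with 16 transcript starts, held no summit of any list.

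The hexamer TGCCGC occurred 6 times in the shared region on either strand. The middle of a hexamer was within 20 bp of the summit in 9 of the 10 lists, at distances of 0.5 bp (Zfp_MB035) to 18.5 bp (Zfp600). For Zfp_MB003 it was 40.5 bp away, at a hexamer further downstream. The 9 summits lie within 41 bp of each other, so they mark a single location and are not 9 separate observations of nearness. Over all 24975 summits on the chromosomes, in and outside CpG islands, 4.14% lay within 20 bp of the middle of a hexamer. That distance was chosen after the values were seen, and the share is background and no test. A hexamer stood in the 200 bp around 12.6% of all summits, and in 9.99% of the 200 bp windows on the starts of protein-coding genes. In the 10 lists with the region, 6.25% (Rex2) to 20% (Zfp_MB025) of the windows held it, with a median of 12.4%. In the 32 other lists this share ran from 0 to 46.7%, with a median of 2.64%.

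The motif that the study derived for each KZFP was absent from these peaks. A motif was given for 8 of the 10 KZFPs and none for Zfp_MB025 and Zfp600, and no exact match was found on either strand within any of the 8 peaks. The same search found the motif of Zfp_MB037 in 63.0% of the windows of its list, that of Rex2 in 44.5%, and that of Zfp_MB018 in 2.94%. An exact match is a strict criterion, and its absence says only that these letters are not in the window.

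A further peak at Inpp5f lay apart. Zfp_MB001 of batch 4 had a summit at position 128244195, in an intron and 16537 bp from the nearest start of the gene, with a fold of 10.4 and rank 1094 of 1153. It was in no CpG island, had no hexamer in its window and was shared with no other list.

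Few regions of the genome were shared by as many lists. The peaks on the chromosomes merged into 21113 regions, of which 11.4% held peaks of at least 2 lists and 0.0379%, 8 regions, held peaks of at least 10. More lists than at Inpp5f met in 4 regions, and the highest number was 13. Of all annotated genes, 0.0153%, 12 genes, had summits of at least 11 lists. Inpp5f was 1 of them, with the intronic peak of Zfp_MB001 counted beside the 10 of the shared region. Because Inpp5f was selected for its recurrence, its place here is a description.

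The lists that held the Inpp5f region also held several of the other regions of this kind, to differing degrees. The 7 others were a region inside Polrmt, the gene of the mitochondrial RNA polymerase (13 lists), one inside the zinc finger gene Zfp777 (11 lists), one at Gm18190 and Gm45844 (10 lists), 2 regions at Gm57952 on chromosome Y (12 lists each), and 2 outside genes on chromosomes 12 and X (10 lists each). The 10 lists with the Inpp5f region had a peak in 2 to 7 of these 7 regions (median 6), and the 32 without it in 0 to 4 (median 1). None of the 7 was shared by all 10 lists. Polrmt and the Gm18190 region each shared 9 of the 10, Zfp777 shared 8, the regions on chromosome Y shared 7 and 8, and that on chromosome X shared 7. The region on chromosome 12 shared 1. Zfp_MB003 and Zfp_MB037 held 2 of the 7, as did some lists without the Inpp5f region. The windows at Inpp5f, Polrmt and Zfp777 had no further copy in the assembly at 80% identity over at least 100 bp, whereas those of the 5 other regions had 11 to 1114. How far a property that these lists have in common bears on the Inpp5f peaks was not tested.

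**Figure D3:**
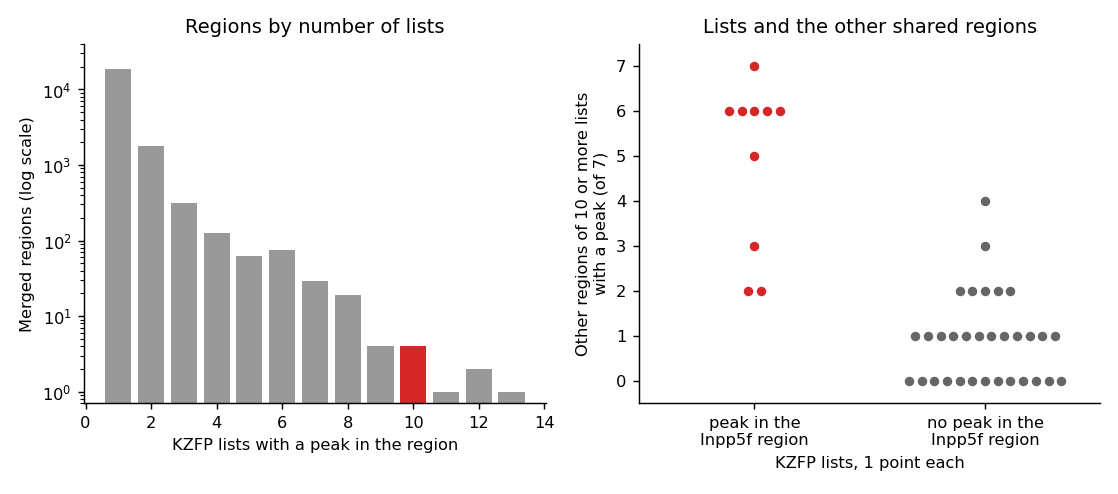
Left, the number of merged regions (log scale) against the number of KZFP lists with a peak in the region, with the class of the Inpp5f region in red. Right, for each list, how many of the 7 other regions of 10 or more lists it held, as 1 point per list; the 10 lists with the Inpp5f region hold 2 to 7 and the 32 others 0 to 4.

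The 10 lists and the others overlapped in depth. Their libraries had 19.6 to 68.5 M reads (median 42.8), against 22.9 to 90.4 (median 43.5) in the 32 others. Their lists had 51 to 459 peaks (median 150.0), against 21 to 6183 (median 118.0), so none of the 6 longest lists was among them. The median fold of a list was 5.43 to 14.3 in the 10 and 5.49 to 24.3 in the others. Between 23.7% (Zfp_MB035) and 85.2% (Zfp_MB037) of their summits lay in CpG islands, with a median of 41.4%, against a median of 7.83% in the 32 others. These ranges overlap, and their part in the Inpp5f peaks was not tested.

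By batch, a summit at Inpp5f was found in 0 of 3, 0 of 3, 3 of 13, 6 of 20 and 2 of 3 lists of batches 1 to 5. That made 6 of 26 lists (23.1%) in the batches with an empty vector control and 5 of 16 (31.2%) in those without it. A summit at any of the 10 genes was found in 1 of 3, 1 of 3, 4 of 13, 8 of 20 and 2 of 3 lists. That made 10 of 26 (38.5%) with the control and 6 of 16 (37.5%) without it. The genes were chosen on these lists, and the control is a property of the batch, of which there were 3 with it and 2 without it, so the shares are a description. The authors removed peaks that overlapped a peak of any negative control sample by even 1 bp. Lists of batches 3 and 5 may therefore have been filtered against controls of other batches. The split by batch need not separate filtered from unfiltered lists. The 5 lists of batch 4, which had an empty vector control, kept their peaks in the shared region.

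Beside Inpp5f, 6 further genes had a summit and 3 had none. The share of genes with a summit of at least 1 list was 17.2% over all 78252 genes and 33.9% over protein-coding genes. These genes are long, with a median of 78.7 kb against 19.2 kb for protein-coding genes. Of the 7 that exceed 60 kb, 6 had a summit, and 64.7% of all protein-coding genes of that length had one. Of the 2 members of 20000 to 60000 bp, 1 had a summit, against 38.3% of protein-coding genes of that length. The 1 shorter member had none, against 19.3%. With so few genes per class, chosen on these lists, the 7 of 10 is no result about imprinted genes. All 22 summits lay inside the genes and none in the 1000 bp on either side.

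**Figure D4:**
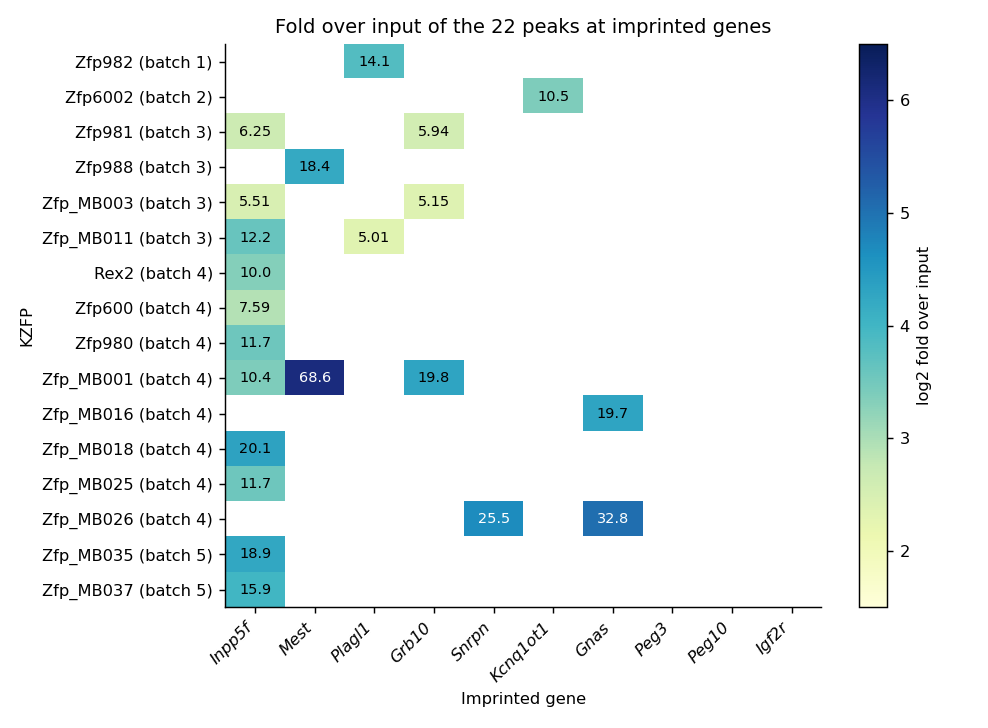
Fold over input of each of the 22 peaks, with the 16 KZFPs (batch in brackets) as rows and the 10 imprinted genes as columns, coloured by the log2 fold. Most filled cells are in the Inpp5f column, Zfp_MB001 at Mest has the highest fold, 68.6, and Peg3, Peg10 and Igf2r are empty.

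Of the 22 summits, 18 (81.8%) lay in a CpG island and 17 (77.3%) within 1000 bp of an alternative start of the gene, and 10 of each came from the shared Inpp5f region that the genes were chosen for. Over all summits, 35.3% were in an island and 27.0% within 1000 bp of a transcript start of any gene. The 17 were at Inpp5f, Mest, Plagl1 and Grb10, and the 5 others were at Snrpn, Kcnq1ot1, Gnas and the intronic site of Inpp5f. The starts were internal to the gene, and the 17 summits lay 11984 to 77020 bp from its 5′ end.

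Mest, a paternally expressed gene for a hydrolase-like enzyme, had the peak with the highest fold among the 10 genes (ENSMUSG00000051855.17, chr6:30723546-30752058). Zfp_MB001 of batch 4 reached a fold of 68.6 at position 30738138, rank 27 of 1153 by fold and 12 by q value (−log10 q 781.0). Zfp988 of batch 3 had a summit at 30738143, 5 bp away, with a fold of 18.4 and rank 62 of 182. Both summits were within 89 bp of the start of Mest-204, in an island of 973 bp with 17 starts and 10 hexamers. The middle of the nearest hexamer was 28.5 and 33.5 bp away. No other list had a peak at Mest, and neither KZFP had a peak in the shared Inpp5f region.

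Plagl1, which encodes a zinc finger transcription factor, also had 2 peaks at almost the same base (ENSMUSG00000019817.20, chr10:12936248-13007438). The summit of Zfp982 of batch 1 lay at 12966798, with a fold of 14.1 and rank 2902 of 4746. That of Zfp_MB011 of batch 3 lay at 12966801, with a fold of 5.01, just above the limit of 5, and rank 274 of 296. The summits were 41 and 44 bp after the start of Plagl1-220, and 27 starts of Plagl1 were within 1000 bp. A hexamer was centred 12.5 and 9.5 bp away. Zfp_MB011 was the only KZFP with a peak both here and in the shared Inpp5f region.

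Grb10, an adaptor that dampens insulin and growth factor signalling, had 3 peaks in 1 island (ENSMUSG00000020176.19, chr11:11880498-11988683, − strand). Zfp981 had a summit at 11975940 with a fold of 5.94 and rank 97 of 335, and Zfp_MB003 one at 11976018 with 5.15 and rank 303 of 360, both of batch 3. Zfp_MB001 of batch 4 had a summit at 11976699 with 19.8 and rank 359 of 1153, in a peak that did not overlap the other 2. The summits of Zfp981 and Zfp_MB003 lay 309 and 231 bp after the start of Grb10-215, and that of Zfp_MB001 33 bp after that of Grb10-207. All 3 were in an island of 1313 bp with a CpG ratio of 1.07 and 4 hexamers, the nearest of which was 142.5, 64.5 and 449.5 bp away. Zfp981 and Zfp_MB003 had peaks in the shared Inpp5f region as well. The island at the 5′ end of Grb10, 1799 bp with 5 hexamers, held no summit.

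The 4 remaining peaks lay over 1000 bp from any start of their own gene, and 3 of them came from lists of over 1000 peaks. At Snrpn, which encodes a spliceosomal protein and is expressed from the paternal copy, Zfp_MB026 had an intronic summit at chr7:59775288 with a fold of 25.5 and rank 1127 of 4106. It was 14726 bp from the nearest start of Snrpn, and its window had 1 similar copy elsewhere at 80% identity, the only one of the 22 with any. At Kcnq1ot1, a paternally expressed long non-coding RNA that silences its neighbours, Zfp6002 had a summit at chr7:142837556 with a fold of 10.5 and rank 109 of 114. It was 11849 bp after the nearest start of Kcnq1ot1 and also within Kcnq1. At Gnas, a complex locus that encodes the stimulatory G protein subunit, Zfp_MB026 had an intronic summit at chr2:174129974 with a fold of 32.8 and rank 795 of 4106, inside the antisense gene Gnasas1. Zfp_MB016 had one at chr2:174137595 with 19.7 and rank 2469 of 6183, in an island of 1532 bp with 5 hexamers, 1532 bp before the start of Gnas-229 and 316 bp from that of Gnasas1-203.

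Peg3, a zinc finger gene, Peg10, which derives from a retrotransposon, and Igf2r, the receptor that clears IGF2, had no summit in any list. The nearest summit outside the window was 5045 bp from Peg3 (Zfp_MB028, fold 20.1), 22722 bp from Peg10 (Zfp_MB001, fold 15.7) and 156670 bp from Igf2r (Zfp_MB026, fold 15.0). For Inpp5f it was 2763 bp upstream (Zfp_MB026, fold 19.2). Below the limits on fold and q value nothing was listed, so weaker signal at these genes was not detectable.

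CpG islands with at least 3 hexamers were present both in genes with peaks and in genes without. The 10 genes had 43 islands within 1000 bp, of which 5 held a summit and 38 did not, while 9.88% of all 75179 islands held one. Of the 43, 12 islands had at least 3 hexamers, and these 12 included all 5 with a summit. The other 7 had 3 to 8 hexamers and no summit, among them the island within Igf2r (8 hexamers), that at the start of Peg3 (7), the island over starts of Snrpn (5) and that at the start of Kcnq1ot1 (3). Snrpn and Kcnq1ot1 had a peak elsewhere in the gene. Over all islands, 33.4% of the 1877 with at least 3 hexamers held a summit and 5.64% of those without a hexamer. These shares were not matched for island width or GC content, and what sets them was not tested. Across the 22 peaks, 15 windows held a hexamer and 11 summits were within 20 bp of one, against 12.6% and 4.14% of all summits. A CpG island held 18 of the 22 summits, against 35.3% of all summits, so these shares are not matched for islands. The 10 peaks of the shared Inpp5f region, for which the genes were chosen, gave 10 of the 15 and 9 of the 11.

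**Figure D5:**
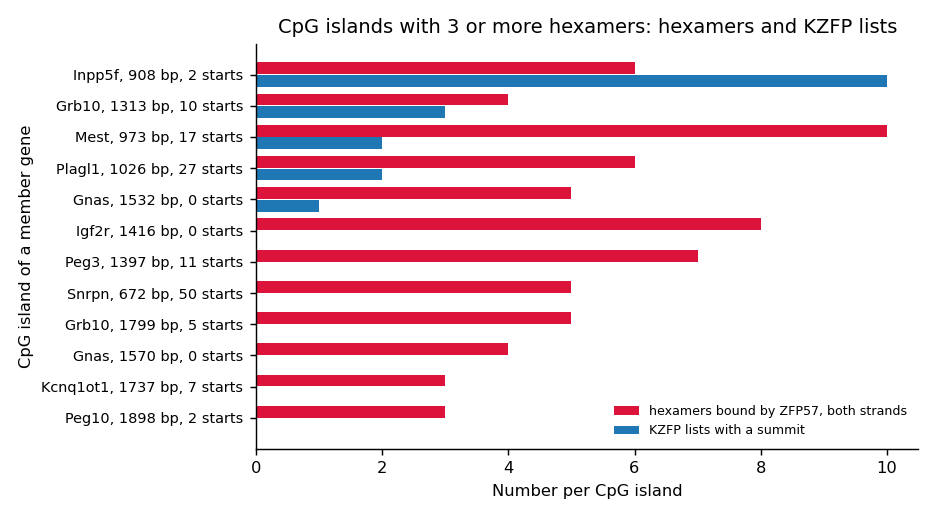
The 12 CpG islands of the 10 genes that hold at least 3 copies of the hexamer TGCCGC, labelled by gene, width and number of the gene's transcript starts inside. Binding by ZFP57 was not measured. Red bars give the number of hexamers on both strands and blue bars the number of KZFP lists with a summit; 5 islands have a blue bar and 7 have none.

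The motif of the KZFP itself was not found at the other genes either. It could be searched at 20 of the 22 peaks, and an exact copy was found in 0 of 20 windows, whereas 2.34% to 63.0% of the windows of the same lists held it. In the 200 bp windows on the starts of protein-coding genes the motifs occurred in at most 0.0184%.

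Genes with a set of KZFPs like that of Inpp5f were ranked by the Jaccard index, the number of shared KZFPs over the number in either set, among 1493 genes with at least 3 KZFPs. Gm43580 and Gm71744 came first with 0.909, since they lie on the same region. Erdr1y, Gm18190 and Gm45844 followed with 0.643, each sharing 9 of the 11 KZFPs of Inpp5f, and have 12 KZFPs each. No other gene of the 10 was among the first 5.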

How the data were processed

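The authors aligned reads to GRCm39 with BWA, placing a read with several equally good positions at 1 of them at random, and called peaks with MACS2 2.2.7.1 against the mixed input of the batch, at q of at most 0.01. The deposited lists give each peak's fold enrichment over input and −log10 q value, after the limits on fold and the removal of control peaks given above. Read totals are from the study's reporting form. The 12 samples without a list (empty vector, inputs and an embryonic stem cell experiment) were not analysed here.

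Summits were assigned to genes of GENCODE vM39, on the same assembly, and 37 peaks on scaffolds were left out of counts by position. Peaks were merged across lists where they overlapped by at least 1 bp. Motifs came from the study's supplement, and copies were sought with blastn 2.17.0. Scripts (Python 3.11.15, pandas 2.3.3, SciPy 1.17.1) were tested on simulated data. Ties took the smaller rank. Fisher's exact test of lists by empty vector control, two-sided at 0.05, is given with its limits at the end. Named are the 10 genes, each KZFP with a summit at one, the 5 genes most like Inpp5f and genes that overlap a peak. Of the other imprinted genes with a summit, only those with one outside the 6 lists of over 1000 peaks are named. The 10 genes and all lists were chosen with earlier results of these data known. Regions shared by at least 10 lists and islands without a summit were named after their values were seen. Alternatives varied the window, the limits on fold and q value, the lists and the batches.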

Additional observations from a re-analysis of the deposited data

How the results depend on the processing

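The 11 lists with a summit at Inpp5f fell to 3 at a fold of at least 15 and were 8 to 13 under the 6 other settings, and the 7 genes with a summit were 5 to 7 under 6 settings. All 10 summits of the shared region lay within 250 bp of their median. The share of all genes with a summit was 33.9% over protein-coding genes, 10.2% at a fold of at least 15, 4.37% without the 6 long lists, and 8.58% over protein-coding genes without them, the last added after the data were seen. An exact two-sided Fisher's test of lists by empty vector control had been planned and is given for completeness only. It treats lists of 1 batch as independent and uses the lists on which the genes were chosen. Peaks over any negative control sample were removed, so it need not compare filtered with unfiltered lists. The exact test gave p = 0.72 for Inpp5f (adjusted p = 1.0 over 2 tests), p = 0.465 for the shared region alone, an alternative added after the data were seen, and p = 1.0 for any of the 10 genes (adjusted p = 1.0). For Inpp5f the direction turned with batch 4 against batch 3 alone (exact p = 1.0) and with 1 list per array (exact p = 1.0). For any of the 10 genes it turned without batch 3 (exact p = 0.553), without batch 4 (exact p = 1.0) and at a fold of at least 15 (exact p = 1.0). No setting gave a p under 0.05, which says nothing about the control because the genes were chosen on these lists. The causes of the turns were not tested. No paired analysis was possible because every KZFP had 1 library. The limits on fold, the removal of control peaks and the random placement of repeated reads bound what a list can show, and its depth in reads at a peak is not in the lists.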

Other observations

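A list of 58 other imprinted genes, also chosen with results known, was searched in the same way. By symbol 55 were in the annotation, and 23 of them (41.8%) had a summit, against 33.9% of protein-coding genes. The shares were not matched for gene length, and 64.7% of protein-coding genes over 60 kb had a summit. The list also holds long non-coding RNAs, and genes that share a peak were counted separately. The difference is therefore no result about imprinted genes. Of the 40 distinct peaks, 32 came from the 6 lists of over 1000 peaks, and outside those lists 8 of the 55 genes had a summit. Without those lists, 8.58% of protein-coding genes and 4.37% of all genes had a summit. Several of the 8 share a peak with another gene, so they are not separate places.

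Of these 8, Peg13, Trappc9, Nap1l5, Herc3 and Casd1 had a summit in a CpG island and near a start. The first 4 shared 2 peaks of Zfp_MB011, which also had peaks at Inpp5f and Plagl1. At Peg13, a paternally expressed long non-coding RNA inside Trappc9, its summit was 310 bp after a start of Peg13, in a CpG island, with a fold of 6.15 and rank 93 of 296. At Nap1l5, a nucleosome assembly protein gene inside Herc3, it was 28 bp before a start, in a CpG island, with a fold of 5.66 and rank 147 of 296. Neither place had a peak of another list. The 200 bp windows are shown from the + strand of GRCm39 with TGCCGC and GCGGCA in capitals (Peg13, chr15:72681763-72681962, and Nap1l5, chr6:58883989-58884188).
Peg13: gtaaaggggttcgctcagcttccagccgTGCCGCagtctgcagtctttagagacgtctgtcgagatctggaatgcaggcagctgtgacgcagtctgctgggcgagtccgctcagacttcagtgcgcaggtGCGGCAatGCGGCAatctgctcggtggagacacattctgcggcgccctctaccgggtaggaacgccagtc
Nap1l5: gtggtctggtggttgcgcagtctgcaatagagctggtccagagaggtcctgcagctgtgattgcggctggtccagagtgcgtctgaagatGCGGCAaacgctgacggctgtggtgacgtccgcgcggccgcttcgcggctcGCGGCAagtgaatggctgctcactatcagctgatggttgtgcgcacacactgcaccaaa
They held 3 and 2 hexamers, and 16.0% of the windows in the list of Zfp_MB011 held at least 1.

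Casd1, which encodes a sialic acid acetyltransferase, had a summit of Zfp_MB013 (fold 5.20, rank 53 of 72) 12 bp after a start, in a CpG island of 1066 bp and with 1 hexamer in its window. Zfp982 had a second summit in the same island. The 3 remaining genes had their summits in introns. Kcnq1 had the Zfp6002 peak that it shares with Kcnq1ot1. At Ppp1r9a, a regulatory subunit of protein phosphatase, Zfp980 (fold 7.54), Zfp_MB035 (10.1) and Zfp_MB011 (6.15) met in an intron, outside any CpG island and in sequence with 1291 to 1311 similar copies elsewhere. Calcr, the calcitonin receptor gene, had an intronic summit of Zfp_MB005 (fold 10.7) with 7285 similar copies, in a CpG island of 713 bp. Zfp_MB016 had a summit in the same island (fold 35.1), and Zfp_MB026 had another elsewhere in the gene (fold 61.0). The 3 KZFPs at Ppp1r9a were all among the 10 of the shared Inpp5f region.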
